A study of Homo sapiens with 12 samples.

Results

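The mRNAs of 10 regulators of the G1 phase of the cell cycle were followed in a pair of lymphoma lines exposed to a CDK9 inhibitor: the D-type cyclins CCND2 and CCND3, the E-type cyclins CCNE1 and CCNE2, the kinases CDK4 and CDK6, the inhibitors CDKN1B (the p27 protein), CDKN2C (p18) and CDKN2D (p19), and the atypical cyclin CCNG2. They were chosen by gene symbol, with earlier results of these data known, and all 10 were found among the 58233 genes of the count table. Their counts below are therefore a description of a chosen set. All 10 had enough counts to be tested, CCND2 only through its counts in VAL. In G1, D-type cyclins activate CDK4 and CDK6, and E-type cyclins then activate CDK2; together these kinases phosphorylate the retinoblastoma protein and free E2F factors to switch on the genes of DNA replication. The INK4 proteins p18 and p19 bind CDK4 and CDK6 themselves, while p27 binds cyclin and kinase complexes, above all those of CDK2. In B cells CCND3 is the D-type cyclin of the germinal centre, and p27 is tied to quiescence.

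OCI-LY3 and VAL are established lines of diffuse large B-cell lymphoma, an aggressive tumour of mature B cells. Poly(A)+ RNA was sequenced after 3 h and 6 h of AZ5576 at 300 nM and from untreated cells (0 h) of each line. AZ5576 selectively inhibits CDK9, whose activity lets RNA polymerase II leave the pause near promoters. The 12 libraries made up 6 groups by line and time, 2 in each. The labels do not say that these were separate cultures, so p-values measure only the spread between libraries, which may be technical. That spread was estimated for each gene over all 6 groups together, so p-values in each line also carry the spread of the other. Time-0 cells are the controls in the labels although the series text names vehicle, so vehicle and time in culture are part of every change with treatment.

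Total counts per library lay between 23175082 and 39715536. All 6 B-cell markers stood at 5 CPM (the count as a share of the library's total, scaled by edgeR's TMM factors, in the usual CPM unit) or more in every library, and the T-cell list summed to at most 1.35 CPM and the erythroid list to at most 0.099 CPM in any library. Of the monocyte and granulocyte list MPO reached 7.19 to 13.2 CPM at 6 h in both lines and was at 0 counts in all 4 untreated libraries; of the epithelial and stromal list COL1A1 stood at 28.8 to 104 CPM in OCI-LY3. The part of these markers in any change below was not tested. Replicates of untreated VAL differed little (chi-square per degree of freedom 1.66), those of treated VAL much (63.7 at 3 h and 51.9 at 6 h), and OCI-LY3 libraries gave 2.31, 19.8 and 2.95 at 0, 3 and 6 h. Fitted alone, OCI-LY3 had 68.2% of all genes called at 3 h against 42.1% in the joint fit, and VAL 42.1% against 54.7%. In the labels, replicate 1 of VAL bears a resubmission mark. In VAL at 3 h, replicate 2 held 2.09% of the untreated OCI-LY3 level of 22 genes that had 20 CPM or more in untreated OCI-LY3 and under 0.1 CPM in untreated VAL, against at most 0.12% in the other VAL libraries; the reverse trace, of 42 VAL genes, was 0.53% in OCI-LY3 at 6 h, replicate 1. Without VAL 3 h replicate 2, 7 falls and 2 rises were called among the 10 genes in VAL at 3 h, with 51% of all genes called; without OCI-LY3 6 h replicate 1, 6 falls and 1 rise were called in OCI-LY3 at 6 h, with 49.6% of all genes called. The mRNAs encoded by mitochondria, which another polymerase transcribes, made up 3.17% to 6.9% of treated libraries and 1.74% to 2.37% of untreated ones. No added standard fixes absolute amounts: held level on those mitochondrial mRNAs, the median change of all 16374 genes tested shifted to -1.09 (3 h) and -1.55 (6 h) in OCI-LY3, and to -1.23 (3 h) and -2.06 (6 h) in VAL, where the TMM medians were 0 and -0.01, and 0.16 and 0.1. Under that scaling at most 7.89% of the genes called in these 4 comparisons were higher, against 42.3% to 54.1% with TMM, and under library totals alone 26.8% to 30.5%. Rises of the 10 genes are therefore given with their value on the mitochondrial scale, and in bulk RNA fewer cells of a kind and less RNA per cell cannot be told apart.

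Falls outnumbered rises among the 10 genes in all 4 comparisons with 0 h. CCNE1, CCNE2, CCNG2, CDKN2C and CDKN2D fell in both lines at both times, CDKN1B fell at 3 h and stood above its untreated level at 6 h, and CDK4 and CDK6 gave no common pattern. In OCI-LY3 at 3 h, 6 of 10 fell, none rose and 4 did not pass; of all genes tested, 42.1% were called, 24.3% lower and 17.8% higher (edgeR's quasi-likelihood test, adjusted p under 0.05). At 6 h, 7 fell and 2 rose in OCI-LY3, where 61.5% of all genes were called, 33.4% lower and 28.1% higher. In VAL at 3 h, 7 fell and none rose, where 54.7% of all genes were called, 25.1% lower and 29.6% higher. At 6 h, 7 fell and 1 rose in VAL, against 66.1% of all genes called, 32.2% lower and 34% higher. These shares include many genes of low count. In a fit of the 9163 genes averaging 5 CPM or more, 56.6% and 73.2% were called in OCI-LY3 at 3 h and 6 h. In VAL 64.4% and 75.2% were. CCND2 lies below that minimum. By ranges alone, treated and untreated libraries did not overlap for 8 lower and 1 higher of the 10 in OCI-LY3 at 3 h (39.5% and 37.6% of all genes) and 7 lower and 2 higher at 6 h (44.1% and 40.2%), and for 7 lower and 1 higher in VAL at 3 h (33.9% and 42.5%) and 7 lower and 3 higher at 6 h (39.5% and 42.5%). With mitochondrial scaling no gene of the 10 rose in any of the 4 comparisons; 9 and 8 fell in OCI-LY3 at 3 h and 6 h, where 66.1% and 71.9% of all genes fell, and 9 at each time in VAL, where 70.9% and 82.5% did. The median log2 change of the 9 genes other than CCND2 was -1.07 and -0.85 in OCI-LY3 at 3 h and 6 h, and -1.23 and -1.51 in VAL.

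**Figure D1:**
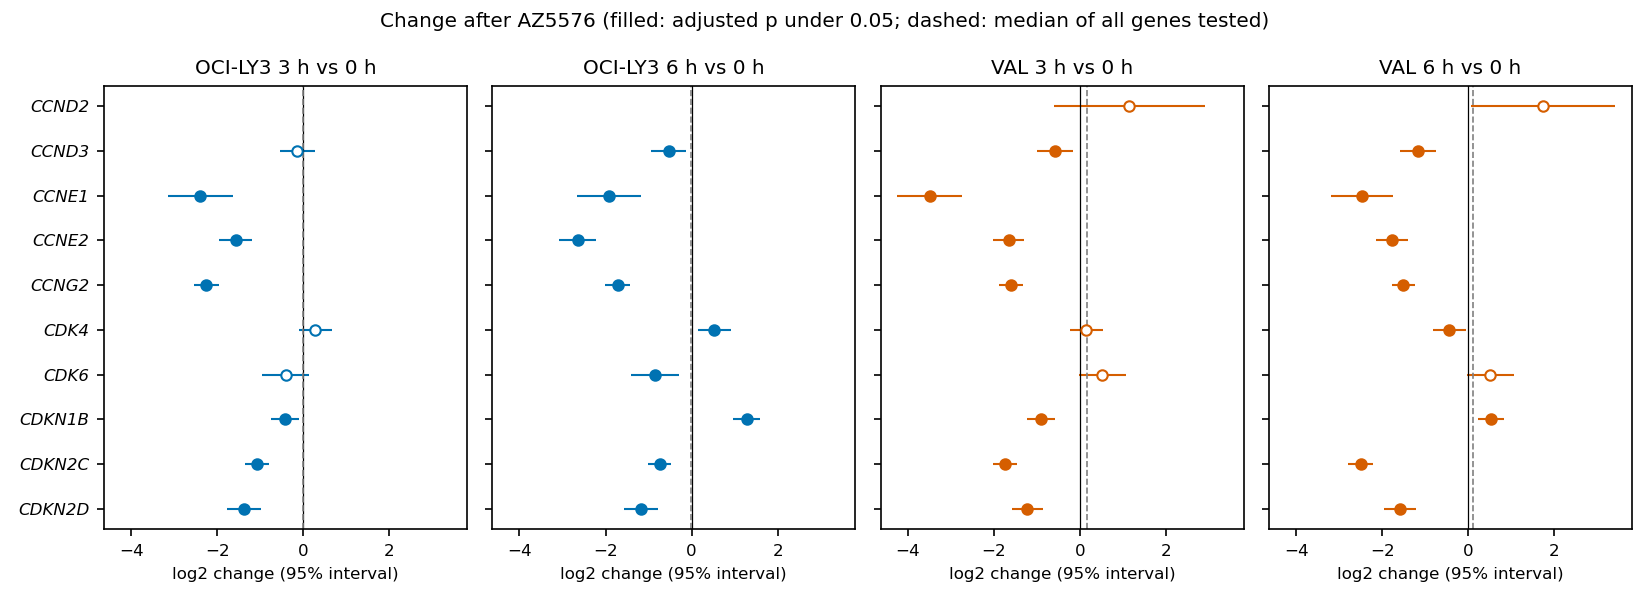
log2 change of each gene at 3 h and 6 h relative to 0 h in each line, with TMM scaling (points, edgeR; bars, 95% interval; filled points have an adjusted p under 0.05; the dashed line is the median of all genes tested). CCND2 is not drawn for OCI-LY3, where its counts are at the floor. CCNE1, CCNE2, CCNG2, CDKN2C and CDKN2D lie left of 0 in all 4 panels. Points right of 0 move to the left of it when mitochondrial mRNAs are held level, as for CDKN1B in OCI-LY3 at 6 h, at -0.28.

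CCND3 was nearly the sole D-type cyclin of both lines, and it declined with time. Its gene (ENSG00000112576) spans chromosome 6, 41934933 to 42050357, on the minus strand of GRCh38. In OCI-LY3 it had 334 and 337 CPM at 0 h, 310 and 300 at 3 h, then 229 and 236 at 6 h. In VAL it had 134 and 137 CPM at 0 h, 69.3 and 113 at 3 h, then 53.3 and 67.9 at 6 h. Every treated library was below both untreated libraries of its line. In OCI-LY3 the change was -0.14 ± 0.185 on the log2 scale at 3 h, which did not pass (adjusted p = 0.592, edgeR), and -0.53 ± 0.186 at 6 h (adjusted p = 0.0288). A log2 change is followed by ± its standard error, a level by ± the SD of 2 libraries. In VAL it fell by 0.58 ± 0.187 at 3 h (adjusted p = 0.0227) and by 1.16 ± 0.19 at 6 h (adjusted p = 0.000269). The 3 h call in VAL rests on replicate 1, without which the change was -0.27 (adjusted p = 0.122). The 6 h call in OCI-LY3 was lost when any one of 7 libraries was left out (either at 0 h or at 6 h, replicate 2 at 3 h, or either untreated VAL library), with changes between -0.56 and -0.48 and adjusted p up to 0.132, and with DESeq2's size factors, at -0.36 (adjusted p = 0.12).

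CCND2, the D-type cyclin of early B-cell activation, was all but absent from these libraries. Its gene (ENSG00000118971) lies on chromosome 12, 4273772 to 4305350, plus strand, and shares 989 exon bases with AC008012.1. OCI-LY3 had 0 and 2 counts at 0 h, 1 and 0 at 3 h, then 0 and 1 at 6 h, at or under a floor of 3 counts for a group, so no fold is given there. VAL had 9 and 5 counts at 0 h, 20 and 2 at 3 h, then 19 and 9 at 6 h. In CPM the 3 h libraries overlapped the untreated ones and the 6 h libraries lay above them. The changes of 1.15 ± 0.794 at 3 h (adjusted p = 0.243) and 1.74 ± 0.762 at 6 h (adjusted p = 0.064) did not pass. Leaving out VAL 3 h replicate 2 gave 1.89 at 3 h (adjusted p = 0.0305), and leaving out VAL 3 h replicate 1 gave -1.08; without either of these the 6 h change was 1.72 (adjusted p 0.0209 and 0.0224). Counts per kilobase of exon, which allow genes to be set side by side, put CCND3 at 98.5% or more of the reads of CCND1, CCND2 and CCND3 together in every library.

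The E-type cyclins lost most of their mRNA by 3 h. CCNE1 (ENSG00000105173; chromosome 19, 29811898 to 29824308, plus strand) and CCNE2 encode the cyclins that activate CDK2 at the entry to S phase. The CCNE1 promoter is shown because its gene had the largest fall of the 10 in VAL at 3 h; it is a GC-rich sequence (81.2% G or C) of 250 bases upstream of the start, at chr19:29811741-29811990 on the plus strand. Matches were sought on both strands to CACGTG (E-box), to the E2F letters TTCCCGC and their variants TTGGCGC, as well as TTCGCGC, along with TTGCCGC, to GGGCGG (GC box), to CCAAT, to GTAAACA (FOXO) and to TATAAA; GC box and E2F matches may share bases. In this and the sequences below, read 5′ to 3′ from RefSeq on GRCh38.p14, capitals mark E-box, E2F, CCAAT and FOXO matches only. This one has none of these and 7 GC boxes, a motif that 42.6% of 35116 promoters of this length hold.
CCNE1 promoter: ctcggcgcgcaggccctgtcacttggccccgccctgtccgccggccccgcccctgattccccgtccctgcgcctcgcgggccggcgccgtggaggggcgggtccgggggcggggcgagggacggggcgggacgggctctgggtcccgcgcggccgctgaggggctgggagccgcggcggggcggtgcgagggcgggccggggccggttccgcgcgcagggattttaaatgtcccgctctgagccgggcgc

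CCNE1 had 13.2 and 14.8 CPM at 0 h in OCI-LY3, 2.77 and 2.56 at 3 h, then 3.76 and 3.65 at 6 h. In VAL it had 34.4 and 34.1 CPM at 0 h, 2.52 and 3.62 at 3 h, then 3.41 and 9.09 at 6 h. Treated and untreated libraries were well apart in both lines, although VAL replicates disagreed at 6 h. The log2 change in OCI-LY3 was -2.39 ± 0.344 at 3 h (adjusted p = 0.000247) and -1.92 ± 0.34 at 6 h (adjusted p = 0.000516). In VAL it was -3.49 ± 0.345 at 3 h, an 11.2-fold lower level (adjusted p = 1.21e-05), and -2.48 ± 0.324 at 6 h (adjusted p = 5.19e-05). Of all genes tested, only 1.2% had a change as low as that of CCNE1 in VAL at 3 h.

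CCNE2 (ENSG00000175305) lies on chromosome 8, 94879770 to 94896678, minus strand. It had 12 and 12.7 CPM at 0 h in OCI-LY3, 4.01 and 4.28 at 3 h, then 1.63 and 2.29 at 6 h. VAL libraries had 40.2 and 41.7 CPM at 0 h, 14.1 and 11.8 at 3 h, then 13.6 and 10.2 at 6 h. The level thus kept dropping in OCI-LY3 and was nearly flat after 3 h in VAL. In OCI-LY3 the changes were -1.57 ± 0.177 at 3 h, then -2.65 ± 0.199 at 6 h (adjusted p = 4.05e-05 and 1.04e-06), and -1.66 ± 0.164 and -1.78 ± 0.166 in VAL (adjusted p = 1.22e-05 and 3.98e-06). The library kit does not keep strand, and CCNE2 shares 1629 exon bases with INTS8 on the opposite strand, which had 28347 counts over the 12 libraries against 5999 for CCNE2, so its level is uncertain. Both E-type cyclins together made up 8.3, 1.99 and 1.9 CPM per kb at 0, 3 and 6 h in OCI-LY3, and 22.8, 4.14 and 5.15 in VAL. CCNE1 contributed 66.2%, 52.6% and 76.6% of that sum in OCI-LY3 and 59%, 29.1% and 45.4% in VAL, where the share at 6 h spanned 30.1% to 60.6% between replicates.

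**Figure D2:**
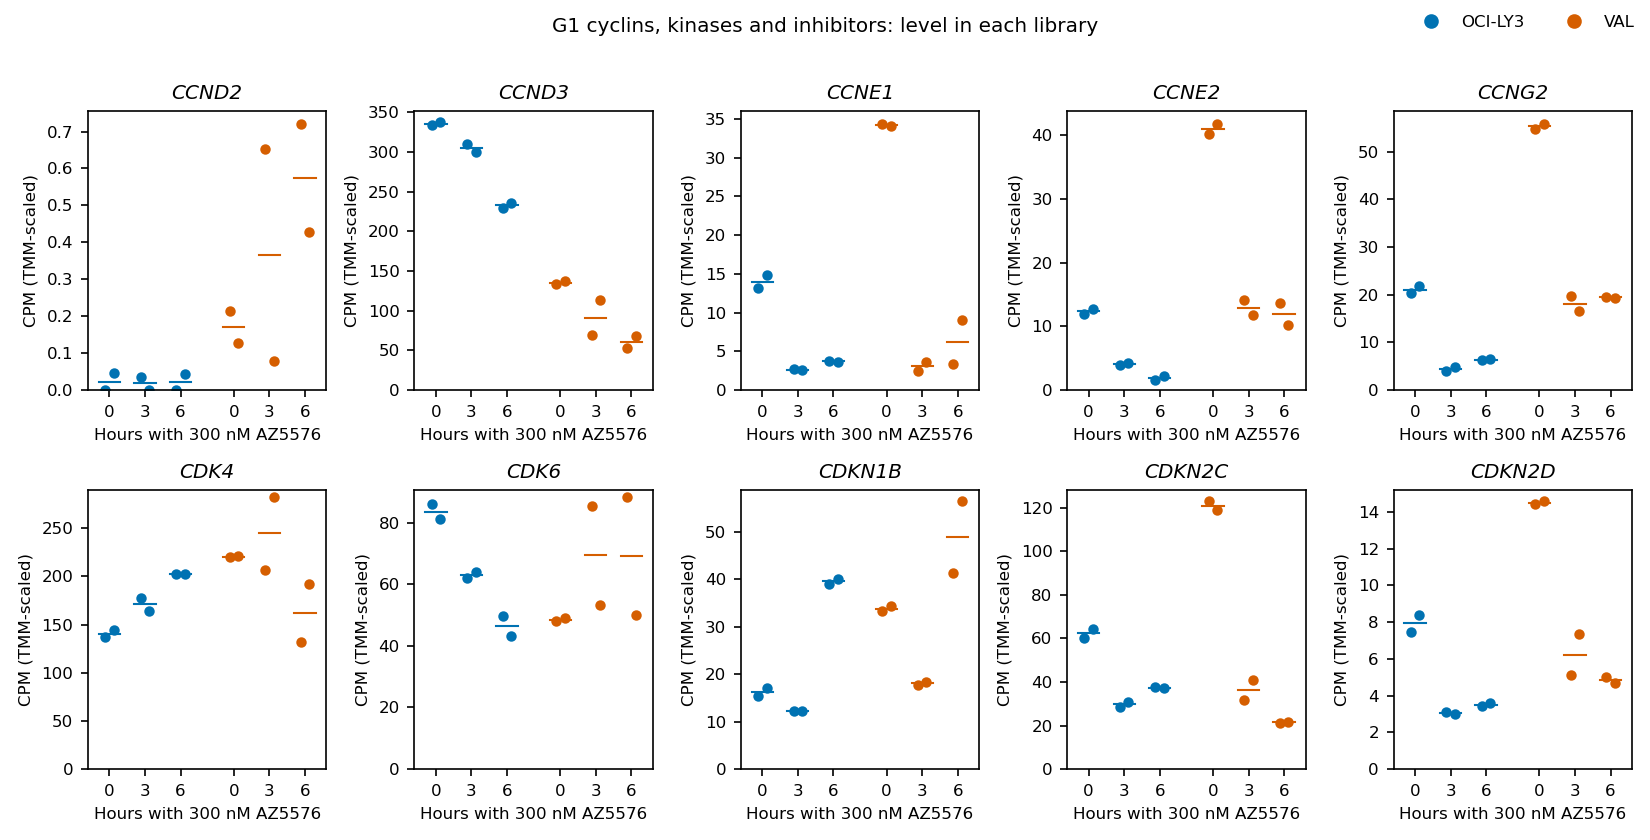
Level of each gene in every library, in CPM scaled by TMM (vertical axes start at 0), against hours with AZ5576 for OCI-LY3 (blue) and VAL (orange); points are libraries, replicate 1 left of replicate 2, and lines are means of 2. CCNE1 in VAL stands at 9.09 CPM or less in all treated libraries, against 34.4 and 34.1 CPM untreated. CDK6 in treated VAL separates by replicate number, with 85.5 and 88.3 CPM in the libraries numbered 1.

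The kinases CDK4 and CDK6, which carry the D-type cyclins, were not called at 3 h in either line with TMM scaling. At 6 h CDK4 was higher in OCI-LY3 and lower in VAL, while CDK6 was lower in OCI-LY3 and not called in VAL. With mitochondrial mRNAs held level both were lower in both lines at both times. CDK4 (ENSG00000135446; chromosome 12, 57747727 to 57756013, minus strand) was one of the most abundant of the 10 per length. Its promoter is shown as that of a gene with no fall called at 3 h in either line; at chr12:57752311-57752560, minus strand, it holds 3 E-boxes, in capitals, the motif bound by MYC and its partners, which 6.34% of promoters hold at least once.
CDK4 promoter: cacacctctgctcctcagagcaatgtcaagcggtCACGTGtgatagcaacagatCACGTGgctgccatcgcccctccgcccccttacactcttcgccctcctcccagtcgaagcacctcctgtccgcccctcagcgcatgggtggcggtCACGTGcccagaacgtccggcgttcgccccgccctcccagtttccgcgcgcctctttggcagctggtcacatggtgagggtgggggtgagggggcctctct

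CDK4 had 137 and 144 CPM at 0 h in OCI-LY3, 178 and 164 at 3 h, then 202 and 202 at 6 h. VAL libraries had 220 and 221 CPM at 0 h, 207 and 282 at 3 h, then 132 and 192 at 6 h. Treated OCI-LY3 libraries were all above the untreated ones, whereas VAL libraries overlapped at 3 h and were lower at 6 h. In OCI-LY3 the change of 0.28 ± 0.174 at 3 h did not pass (adjusted p = 0.222), and the rise of 0.52 ± 0.174 at 6 h (adjusted p = 0.022) became -1.04 with mitochondrial mRNAs held level and 0.15 with library totals alone (adjusted p = 0.329). In VAL it stood at 0.15 ± 0.173 at 3 h (adjusted p = 0.49) and fell by 0.44 ± 0.174 at 6 h (adjusted p = 0.0419). The OCI-LY3 call was lost without either 0 h or either 6 h library (adjusted p 0.068 to 0.109). The VAL call was lost without VAL 6 h replicate 1, at -0.21 (adjusted p = 0.264), without either VAL 0 h library, at -0.52 and -0.5, and narrowly without OCI-LY3 3 h replicate 1 or either OCI-LY3 6 h library (adjusted p 0.0501 to 0.0552). DESeq2's size factors gave -0.37 in VAL (adjusted p = 0.0854). TSPAN31 overlaps 1369 exon bases of CDK4 on the opposite strand, with 6807 counts against 69136.

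CDK6 (ENSG00000105810; chromosome 7, 92604921 to 92836594, minus strand) had 86 and 81.2 CPM at 0 h in OCI-LY3, 62.1 and 63.9 at 3 h, then 49.6 and 43.2 at 6 h. VAL libraries had 48.2 and 48.9 CPM at 0 h, 85.5 and 53.4 at 3 h, then 88.3 and 50.1 at 6 h. OCI-LY3 libraries declined in step, and VAL libraries split by replicate number. The change in OCI-LY3 was -0.41 ± 0.246 at 3 h (adjusted p = 0.21) and -0.85 ± 0.249 at 6 h (adjusted p = 0.0116). The 6 h call was lost without OCI-LY3 6 h replicate 2, at -0.77 (adjusted p = 0.0775). In VAL the changes of 0.52 ± 0.247 at 3 h and 0.51 ± 0.247 at 6 h did not pass (adjusted p = 0.0968 and 0.0881). Within replicate number 1 the ratio to 0 h was 0.83 and 0.87 at 3 h and 6 h on the log2 scale, and within number 2 it was 0.13 and 0.04. Without the replicate 2 library of the same time the VAL changes were 0.8 (adjusted p = 0.0126) and 0.84 (adjusted p = 0.00399); leaving out either VAL library of the other time gave 0.51 at 3 h (adjusted p 0.025 and 0.0252) and 0.49 at 6 h (adjusted p 0.0407 and 0.0418). With mitochondrial scaling the VAL values were -0.94 and -1.71. CDK4 made up 86.7%, 91.2% and 94.4% of the CDK4 and CDK6 reads per kb at 0, 3 and 6 h in OCI-LY3, and 94.6%, 92.8% and 89.5% in VAL.

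The inhibitor CDKN1B was the one gene of the 10 that passed in both directions against 0 h within a line. Its protein p27 holds CDK2 complexes inactive, and its gene (ENSG00000111276) lies on chromosome 12, 12715058 to 12722371, plus strand. Its promoter is shown because its gene changed direction with time; at chr12:12717118-12717367, plus strand, it holds 2 CCAAT boxes, in capitals, a motif present in 32% of promoters, and 1 GC box, and neither an E-box nor the FOXO letters.
CDKN1B promoter: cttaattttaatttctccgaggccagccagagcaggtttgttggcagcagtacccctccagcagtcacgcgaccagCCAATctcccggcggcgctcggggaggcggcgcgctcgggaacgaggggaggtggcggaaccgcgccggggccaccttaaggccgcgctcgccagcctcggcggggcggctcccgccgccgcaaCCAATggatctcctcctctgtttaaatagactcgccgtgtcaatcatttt

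CDKN1B had 15.4 and 17.2 CPM at 0 h in OCI-LY3, 12.2 and 12.2 at 3 h, then 39 and 40.1 at 6 h. In VAL it had 33.3 and 34.3 CPM at 0 h, 17.7 and 18.4 at 3 h, then 41.3 and 56.6 at 6 h. In both lines the 3 h libraries were the lowest and the 6 h libraries the highest, with no overlap between times. It fell at 3 h by 0.42 ± 0.145 in OCI-LY3 (adjusted p = 0.0369) and by 0.91 ± 0.143 in VAL (adjusted p = 0.000331). At 6 h it stood 1.28 ± 0.143 above 0 h in OCI-LY3, 2.42-fold (adjusted p = 1.89e-05), and 0.53 ± 0.14 above it in VAL, 1.45-fold (adjusted p = 0.00602); with mitochondrial mRNAs held level these were -0.28 and -1.63. Between 3 h and 6 h it rose by 1.7 ± 0.147 in OCI-LY3 (adjusted p = 3.7e-05) and by 1.44 ± 0.144 in VAL (adjusted p = 0.000111), and this rise kept its sign on the mitochondrial scale, at 1.27 and 0.68. The 3 h call in OCI-LY3 passed in 4 of 12 fits with a library left out, failing without any one OCI-LY3 library or either VAL 0 h library (-0.46 to -0.3, adjusted p up to 0.312), and DESeq2's size factors gave -0.31 (adjusted p = 0.126). The 6 h rise in VAL did not pass without VAL 0 h replicate 1 (0.44), VAL 0 h replicate 2 (0.49) or VAL 6 h replicate 2 (0.27, adjusted p = 0.0705), nor with library totals alone (0.03, adjusted p = 0.839).

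The INK4 inhibitor genes CDKN2C and CDKN2D fell in both lines and were still below their untreated levels at 6 h. CDKN2C (ENSG00000123080; chromosome 1, 50960745 to 50974633, plus strand), whose protein p18 accompanies terminal differentiation of B cells into plasma cells, was the more abundant. It had 60.4 and 64.3 CPM at 0 h in OCI-LY3, 28.5 and 30.9 at 3 h, then 37.5 and 37.1 at 6 h. The values in VAL were 123 and 119 CPM at 0 h, 31.6 and 41 at 3 h, then 21.3 and 21.6 at 6 h. No treated library came near the untreated ones. The log2 change in OCI-LY3 was -1.07 ± 0.124 at 3 h and -0.74 ± 0.124 at 6 h (adjusted p = 5.19e-05 and 0.000344). In VAL it was -1.74 ± 0.126 and -2.5 ± 0.13 (adjusted p = 1.29e-06 and 9.44e-08), the 6 h level being 5.65-fold lower.

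CDKN2D (ENSG00000129355; chromosome 19, 10566462 to 10569059, minus strand), which encodes p19, had 7.47 and 8.4 CPM at 0 h in OCI-LY3, 3.1 and 2.98 at 3 h, then 3.41 and 3.61 at 6 h. VAL libraries had 14.4 and 14.6 CPM at 0 h, 5.1 and 7.37 at 3 h, then 5 and 4.66 at 6 h. Its changes were -1.38 ± 0.177 and -1.18 ± 0.179 in OCI-LY3 (adjusted p = 0.000105 and 0.000179), and -1.23 ± 0.165 and -1.59 ± 0.171 in VAL (adjusted p = 0.000114 and 1.14e-05). Per length, p27, p18 and p19 mRNAs together amounted to 29.9, 15.3 and 27.6 CPM per kb at 0, 3 and 6 h in OCI-LY3, and to 58.2, 21.5 and 27 in VAL. CDKN1B made up 19.4%, 28.3% and 50.9% of that sum in OCI-LY3, and 20.7%, 30.2% and 64% in VAL. Its share thus grew at each time in both lines, a ratio within libraries that no scaling alters. CDKN2C went the other way, with 62.9%, 58.4% and 40.7% of the sum in OCI-LY3, and 62.7%, 50.8% and 24% in VAL. The sum leaves out 2 other expressed inhibitors, CDKN1A and CDKN2A, so these are not shares of all CDK inhibitor mRNA. In OCI-LY3 those 2 had 21.5 and 18.3 CPM per kb at 0 h, then 21 and 39.1 at 6 h. In VAL they had 27.7 and 12.9 at 0 h, then 56.5 and 29.4 at 6 h.

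**Figure D3:**
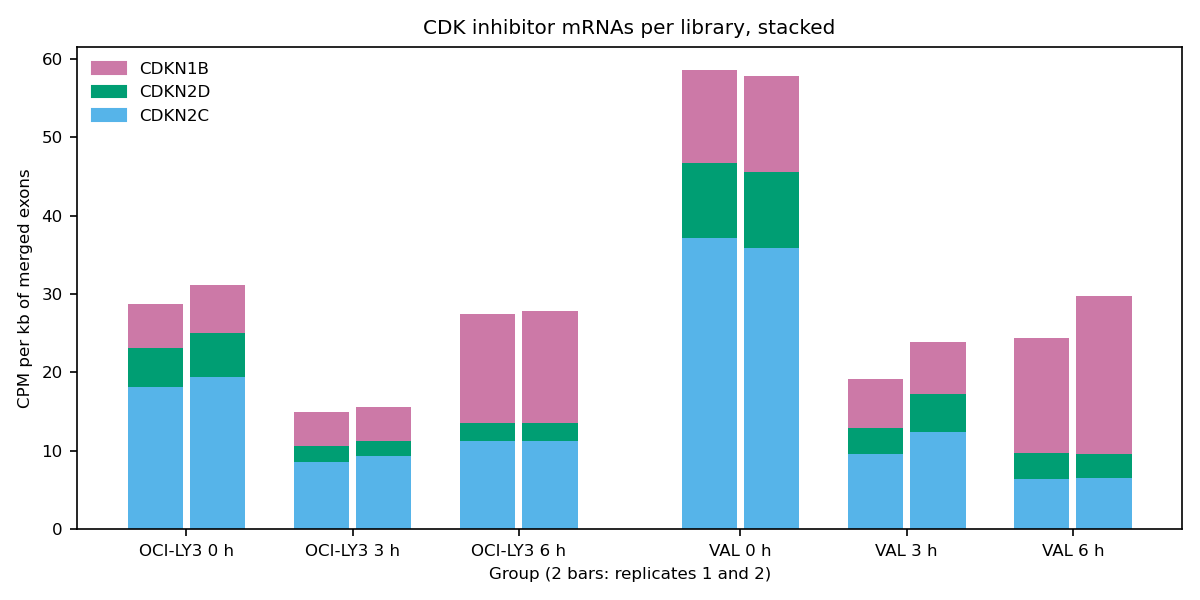
CDKN1B, CDKN2D and CDKN2C in each library, stacked, in CPM per kb of merged exons (vertical axis from 0; 2 bars per group are replicates 1 and 2). The CDKN1B segment makes up 50.9% of the bar on average at 6 h in OCI-LY3 and 64% in VAL, and 19.4% and 20.7% at 0 h. The expressed inhibitors CDKN1A and CDKN2A are not drawn.

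CCNG2, an atypical cyclin associated with arrested cells and, in other settings, induced by FOXO factors, fell without exception. Its gene (ENSG00000138764) is the longest of the 10, with 276.2 kb on chromosome 4, 77157151 to 77433388, plus strand. Its promoter is shown beside that of CDKN1B, the other gene of the 10 often named as a FOXO target; at chr4:77156957-77157206, plus strand, it holds 1 E-box, in capitals, and 4 GC boxes, and it too lacks the FOXO letters, which 2.98% of promoters hold.
CCNG2 promoter: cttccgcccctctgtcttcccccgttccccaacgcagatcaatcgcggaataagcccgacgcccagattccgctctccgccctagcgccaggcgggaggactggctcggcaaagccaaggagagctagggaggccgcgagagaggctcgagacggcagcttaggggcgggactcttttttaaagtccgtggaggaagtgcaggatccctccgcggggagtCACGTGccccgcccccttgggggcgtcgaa

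CCNG2 had 20.3 and 21.8 CPM at 0 h in OCI-LY3, 4.09 and 4.77 at 3 h, then 6.29 and 6.46 at 6 h. The values in VAL were 54.8 and 55.9 CPM at 0 h, 19.8 and 16.5 at 3 h, then 19.5 and 19.4 at 6 h. Each treated group was far below its untreated one, with replicates close together. In OCI-LY3 the change was -2.25 ± 0.134 at 3 h, then -1.72 ± 0.132 at 6 h (adjusted p = 5.32e-07 and 1.15e-06), and -1.61 ± 0.123 and -1.51 ± 0.123 in VAL (adjusted p = 1.91e-06 and 1.45e-06). The falls of CCNE1, CCNE2, CCNG2, CDKN2C and CDKN2D passed in both lines at both times in every fit that left out 1 library.

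The comparison of 6 h with 3 h asked whether the changes went on. In OCI-LY3, 2 of the 10 rose and 1 fell, where 12% and 16.3% of all genes did (28.3% in all): CDKN1B, as above, and CCNG2 rose (0.53 ± 0.141, adjusted p = 0.0172), and CCNE2 fell further (-1.07 ± 0.213, adjusted p = 0.00354). The CCNG2 rise was 0.08 on the mitochondrial scale and was not called without OCI-LY3 3 h replicate 1 (0.41) or either 6 h library (0.54 and 0.5). In VAL, 1 rose and 3 fell, where 7.54% and 15.3% of all genes did (22.8% in all). The 2 times did not overlap for 6 higher and 3 lower of the 10 in OCI-LY3 (33.8% and 35.8% of all genes) and for 1 higher and 4 lower in VAL (21.4% and 26.7%). CDKN2C fell further (-0.76 ± 0.127, adjusted p = 0.00157), as did CCND3 (-0.59 ± 0.189, adjusted p = 0.0457) and CDK4 (-0.59 ± 0.174, adjusted p = 0.0317). The CCND3 call was kept only without VAL 3 h replicate 1 or VAL 6 h replicate 2, and the CDK4 call only without those or OCI-LY3 3 h replicate 1; leaving out VAL 3 h replicate 2 gave -0.2 and -0.36. CCNE1 in VAL stood at 1.01 ± 0.356 and did not pass (adjusted p = 0.0647); without VAL 6 h replicate 1 it was 1.57 (adjusted p = 0.000403), and without VAL 6 h replicate 2 it was 0.15. Calls also appeared for CDKN2D in VAL without VAL 3 h replicate 1 (-0.62, adjusted p = 0.012), and in OCI-LY3 for CCND3 (-0.4) and CDKN2C (0.32) without either VAL 3 h library.

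Before treatment the lines already differed in these genes. OCI-LY3 was higher in 2 of the 10 and lower in 7, where 29.8% and 26.5% of all genes were (56.3% in all). No gene of the 10 overlapped between the lines, 2 being higher and 8 lower in OCI-LY3 (45.6% and 41.5% of all genes). OCI-LY3 libraries came from a different lane than those of VAL, so line and lane cannot be told apart. CCND3 was 1.3 ± 0.189 higher in OCI-LY3 on the log2 scale, with 335 ± 1.87 CPM against 136 ± 2.38 CPM in VAL (adjusted p = 0.000132). CDK6 was 0.78 ± 0.246 higher (adjusted p = 0.0184), a call lost without any one of the 4 untreated libraries or OCI-LY3 3 h replicate 2 (0.59 to 0.66), and on the mitochondrial scale, at 0.32 (adjusted p = 0.416). Lower in OCI-LY3 were CCNE2 (-1.73 ± 0.163, adjusted p = 4.65e-06), CCNG2 (-1.39 ± 0.121, adjusted p = 2.42e-06), CCNE1 (-1.29 ± 0.299, adjusted p = 0.00337), CDKN1B (-1.05 ± 0.142, adjusted p = 7.95e-05), CDKN2C (-0.96 ± 0.122), CDKN2D (-0.87 ± 0.16) and CDK4 (-0.65 ± 0.174, adjusted p = 0.00799). CCND2 did not pass (adjusted p = 0.0884); its counts, 2 against 14, gave a ratio of OCI-LY3 to VAL of 0.136 (95% exact Poisson interval 0.015 to 0.593, counting error only). Per kb, the order in OCI-LY3 was CCND3 (57.8), CDK4 (44.4), CDKN2C (18.8), CDK6 (6.82), CDKN1B (5.81), CCNE1 (5.49), CDKN2D (5.28), CCNG2 (2.82), CCNE2 (2.81) and CCND2 (0.00316). The neighbours CDKN1B and CCNE1, CCNE1 and CDKN2D, and CCNG2 and CCNE2 each lay closer together than their SDs. In VAL it was CDK4 (69.7), CDKN2C (36.5), CCND3 (23.4), CCNE1 (13.4), CDKN1B (12), CDKN2D (9.66), CCNE2 (9.32), CCNG2 (7.41), CDK6 (3.96) and CCND2 (0.0239).

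The difference between lines in the change itself was tested as an interaction. At 3 h, 1 of the 10 differed upward and none downward, where 2.73% and 3.3% of all genes did (6.03% in all): CDKN2C fell less in OCI-LY3 than in VAL, by 0.67 ± 0.174 (adjusted p = 0.0486), a call kept in 3 of 12 fits with a library left out (0.49 to 0.9, adjusted p up to 0.141), failing without either library of VAL 0 h, OCI-LY3 0 h, 3 h or 6 h, or VAL 3 h replicate 1. At 6 h, 3 differed upward and 2 downward, where 12.3% and 14.4% of all genes did (26.8% in all). CDKN2C was 1.76 ± 0.176 less reduced in OCI-LY3 (adjusted p = 0.00018), and this passed in all 12 fits with a library left out (1.75 to 1.92). CDK4 differed by 0.97 ± 0.246 (adjusted p = 0.0154), CDKN1B by 0.75 ± 0.199 (adjusted p = 0.0189), CDK6 by -1.36 ± 0.35 (adjusted p = 0.016) and CCNE2 by -0.87 ± 0.259 (adjusted p = 0.0306). Those 4 calls were less firm. CDK4 passed in 9 of 12 such fits (not without OCI-LY3 0 h replicate 1 or either OCI-LY3 6 h library, 0.97 to 1.02). CDKN1B passed in 7 (not without OCI-LY3 0 h replicate 1, either OCI-LY3 6 h or either VAL 0 h library, 0.73 to 0.87). CDK6 passed in 7 (not without any of the 4 untreated libraries or OCI-LY3 6 h replicate 2, -1.28 to -1.21). CCNE2 passed in 5 (not without any of the 4 untreated libraries, OCI-LY3 3 h replicate 2, OCI-LY3 6 h replicate 1 or VAL 6 h replicate 1, -0.8 to -0.63). For CCNE1 the difference was 1.1 (95% interval 0.04 to 2.15, adjusted p = 0.185) at 3 h and 0.56 (-0.47 to 1.58, adjusted p = 0.418) at 6 h, and for CCNG2 -0.64 (-1.04 to -0.25, adjusted p = 0.0579) and -0.21 (-0.6 to 0.18, adjusted p = 0.42). On the mitochondrial scale the 3 h difference of CDKN2C was 0.93 (adjusted p = 0.319), and the 6 h differences of CDK6 and CCNE2 were -0.7 (adjusted p = 0.25) and -0.22 (adjusted p = 0.778). Some differences that did not pass in the main fit did so with a VAL library left out, and some of them under other settings too. At 3 h these were CCNE1 (1.1) and CCNG2 (-0.64) without either VAL 6 h library, CDK6 without those (-0.93 and -0.92) or VAL 3 h replicate 2 (-1.22), and CCND3 (0.84) and CCNG2 (-0.76) without VAL 3 h replicate 2. At 6 h they were CCND3 without either VAL 3 h library (0.64 and 0.65) or VAL 6 h replicate 2 (0.83), and CCNE1 without VAL 6 h replicate 2 (1.42).

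**Figure D4:**
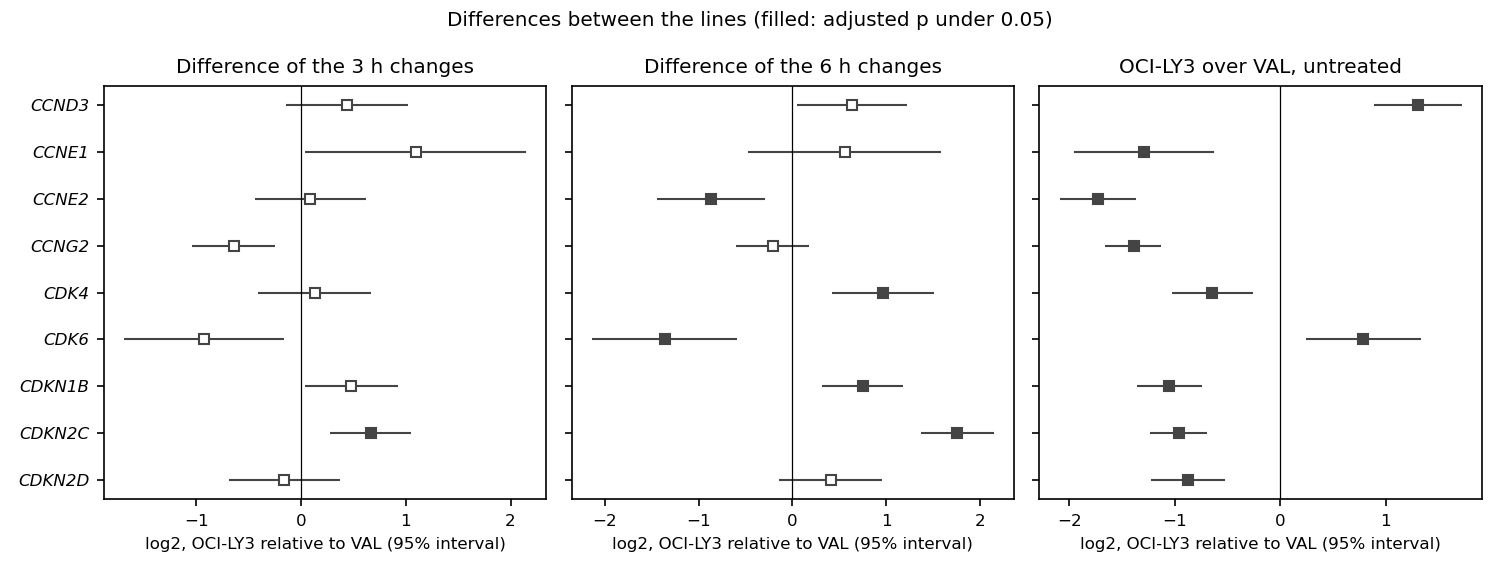
OCI-LY3 relative to VAL on the log2 scale: the difference of the changes from 0 h at 3 h and at 6 h, and the ratio of untreated levels (squares, edgeR; bars, 95% interval; filled, adjusted p under 0.05). CCND2 is left out, its OCI-LY3 counts being at the floor. CDKN2C is the one gene filled at both times, at 0.67 and 1.76.

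Of the other genes of the pathway, a list of 37 by role, 36 could be tested (all but CDKN1C). In OCI-LY3, 3 rose and 17 fell at 3 h, where 17.8% of all genes rose and 24.3% fell, and 5 rose and 17 fell at 6 h, where 28.1% rose and 33.4% fell. In VAL, 11 rose and 14 fell at 3 h, where 29.6% of all genes rose and 25.1% fell, and 11 rose and 17 fell at 6 h, where 34% rose and 32.2% fell. Their median change was -0.42 and -0.27 in OCI-LY3, and -0.03 and -0.13 in VAL. Among 10 E2F and DP factors, activators and repressors counted together, 6 fell and 1 rose in OCI-LY3 at 3 h and 7 fell and 2 rose at 6 h. In VAL 6 fell and 2 rose at 3 h, then 7 fell and 2 rose at 6 h. The repressor E2F6 changed by -2.33 ± 0.173 and -2.5 ± 0.183 in OCI-LY3 (adjusted p = 2.06e-06 and 8.54e-07), and by -3.06 ± 0.171 and -2.67 ± 0.168 in VAL (adjusted p = 2.62e-07 and 2.64e-07). E2F3, an activator, changed by -1.44 ± 0.108 in OCI-LY3 at 3 h and E2F5 by -1.49 ± 0.145 at 6 h. E2F2, another activator, fell in OCI-LY3 at 3 h (-0.78 ± 0.0942, adjusted p = 7.17e-05) and stood higher there at 6 h (0.74 ± 0.0937, adjusted p = 4.78e-05), while in VAL it changed by -1.52 ± 0.0958 and -0.9 ± 0.0943. TFDP1, the DP partner of E2F proteins, rose by 1.18 ± 0.0937 in VAL at 6 h (adjusted p = 1.25e-06), with 1100 ± 82.2 CPM against 488 ± 1.36 CPM at 0 h. Values on the mitochondrial scale were not computed for the genes of this list, so its rises are relative to TMM scaling. Nor were its calls followed through the fits with a library left out, so how far they rest on single libraries was not tested.

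The phosphatase CDC25A, which activates CDK2, had 16.9 ± 0.507 CPM at 3 h in OCI-LY3 against 102 ± 0.768 at 0 h, and 7.68 ± 3.05 against 81.7 ± 0.874 in VAL, changes of -2.59 ± 0.249 and -3.42 ± 0.264 (adjusted p = 1.26e-05 and 2e-06). CDK7, the kinase of the CDK-activating complex, changed by -0.57 ± 0.178 and -1.93 ± 0.189 at 3 h and 6 h in OCI-LY3 and by -2 ± 0.193 and -3.03 ± 0.21 in VAL, where its partner CCNH changed by -1.39 ± 0.14 at 6 h. Cyclin A2 (CCNA2) fell throughout, at -0.78 ± 0.116 and -1.66 ± 0.119 in OCI-LY3 and -1.11 ± 0.117 and -2.17 ± 0.122 in VAL. CCND1 in OCI-LY3, at under 1 CPM, changed by -1.04 ± 0.377 at 3 h (adjusted p = 0.0454) and stood at -0.36 ± 0.366 at 6 h (adjusted p = 0.421). In VAL CCNI changed by 0.33 ± 0.0856 at 3 h and CCNG1 by -0.26 ± 0.097 at 6 h.

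Among the other inhibitors, CDKN1A, which encodes p21, changed by -1.73 ± 0.174 in OCI-LY3 at 3 h (adjusted p = 1.78e-05) and stood at -0.03 ± 0.167 there at 6 h (adjusted p = 0.897). In VAL it changed by -1.27 ± 0.17 at 3 h and 1.03 ± 0.167 at 6 h (adjusted p = 0.000106 and 0.000263). Its VAL replicates disagreed at 6 h, with 172 ± 50.5 CPM against 84.4 ± 0.152 CPM at 0 h. CDKN2A, the locus of the INK4 protein p16 and of ARF, changed by 0.67 ± 0.129 and 1.1 ± 0.13 in OCI-LY3, and by 0.86 ± 0.13 and 1.19 ± 0.13 in VAL. CDKN2B did not pass in OCI-LY3 at 6 h (adjusted p = 0.881). Of the pocket proteins RBL1 fell, at -0.93 ± 0.121 and -2.07 ± 0.128 in OCI-LY3 and -1.23 ± 0.122 and -1.39 ± 0.124 in VAL, while RB1, at 0.26 ± 0.151 in OCI-LY3 at 3 h (adjusted p = 0.191), had 0.61 ± 0.151 there at 6 h (adjusted p = 0.00472), and 1.04 ± 0.152 and 0.87 ± 0.152 in VAL. RB1 replicates in VAL were apart at 3 h, with 238 ± 53 CPM against 116 ± 2.31 CPM at 0 h. Of the 8 ubiquitin ligase parts that turn over G1 cyclins and p27, 1 rose and 3 fell at 3 h in OCI-LY3 (17.8% and 24.3% of all genes). At 6 h 1 rose and 4 fell there (28.1% and 33.4%). In VAL 2 rose and 2 fell at 3 h (29.6% and 25.1%), and 3 rose and 2 fell at 6 h (34% and 32.2%). Those of smallest adjusted p, named here, fell. FBXO31 changed by -1.6 ± 0.131 and -2.09 ± 0.136 in OCI-LY3 and by -0.71 ± 0.126 and -1.1 ± 0.129 in VAL. AMBRA1 changed by -0.87 ± 0.107 and -0.92 ± 0.108 in OCI-LY3, and the scaffold CUL1 by -0.46 ± 0.0999 and -1.65 ± 0.103 in VAL. AMBRA1 was not called in VAL, at -0.09 ± 0.106 and 0.06 ± 0.106, nor CUL1 in OCI-LY3 at 3 h, at -0.07 ± 0.0994. Outside that choice by p, SKP1 rose by 0.66 ± 0.162 in OCI-LY3 at 3 h (adjusted p = 0.00771). In VAL SKP1 rose by 0.68 ± 0.162 and 0.98 ± 0.163 (adjusted p = 0.00465 and 0.000295). FOXO1, a FOXO factor of B cells, changed by -2.38 ± 0.198 and -2.76 ± 0.203 in OCI-LY3 and by -1.59 ± 0.195 and -1.91 ± 0.199 in VAL. FOXO3 changed by -1.43 ± 0.301 and -1.86 ± 0.315 in OCI-LY3, and FOXO4 by 0.8 ± 0.213 and 1.12 ± 0.212 in VAL. In VAL FOXO3 stood at -0.43 ± 0.3 at 3 h (adjusted p = 0.243) and -0.87 ± 0.311 at 6 h (adjusted p = 0.0278). FOXO4 stood at -0.02 ± 0.222 in OCI-LY3 at 3 h (adjusted p = 0.983). Its level was low, at 3.78 ± 0.0608 CPM in VAL at 0 h and 8.19 ± 2.7 CPM at 6 h.

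**Figure D5:**
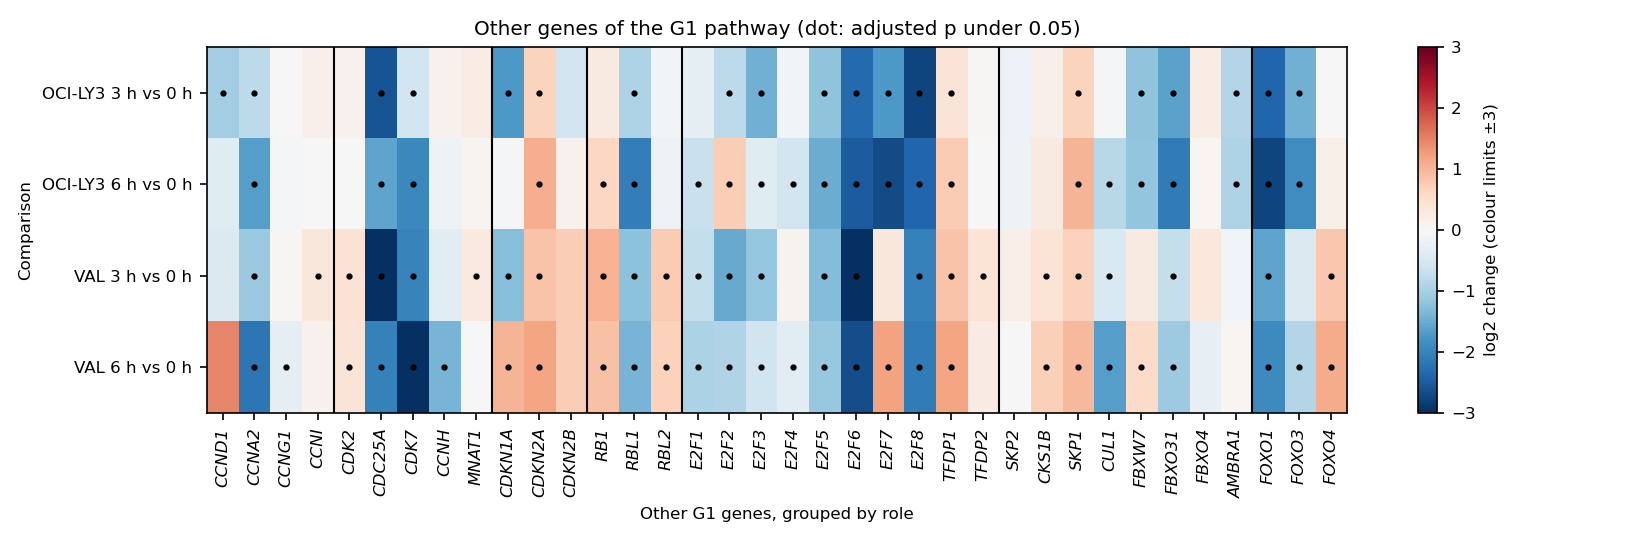
log2 change with TMM scaling of 36 other G1 genes (columns, grouped by role between vertical lines) in the 4 comparisons with 0 h (rows); colour runs from blue, lower, to red, higher, with limits at 3, and dots mark an adjusted p under 0.05. Among others, E2F6, CDC25A, CDK7, RBL1, FBXO31 and FOXO1 are blue and dotted in every row. Red cells were not recomputed on the mitochondrial scale.

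As a description, the genes whose log2 level, centred within each line, lay nearest to a member's over the 12 libraries were sought among 8695 protein-coding genes. Nearest to CCND3 were PEX16, DDX56 and BAG1, with a root mean square difference of 0.055 for PEX16. CCNE1 had SLC2A1 (0.223), HERPUD1 and RNF139, and CCNE2 had CYB561D1 (0.129), SLC35F6 and FZR1. CDKN1B had ZNF510 (0.214), FEM1A and ZNF408, CDKN2C had CLK3 (0.151), GCSAM and RUNX3, CDKN2D had LRRC14 (0.149), MKRN1 and RBM18, and CCNG2 had NAB2 (0.12), FAM122A and ZKSCAN5. Over all genes searched the median difference was 0.539 for CCND3 and 1.3 for CCNE1. Among these 7 genes of the 10 (CCND2, CDK4 and CDK6 were not compared) CDKN2C and CDKN2D were the closest pair, at 0.3.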

How the data were processed

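RNA-seq of poly(A)+ RNA from 12 libraries was used. The authors deposited a table of raw counts per gene, and a table of log2 normalized values that served only as an alternative. Reference GRCh38 and DESeq2 are named per the submitters' processing notes. The aligner and the counter were not given in the sources used here. All 10 genes and the gene lists were chosen with earlier results of these data known. From the deposited counts, edgeR 4.0.16 (R 4.3.3) with TMM factors and filterByExpr kept 16374 genes; 1 quasi-likelihood fit over the 6 groups (residual degrees of freedom 6) gave 9 comparisons, with Benjamini-Hochberg adjustment over all genes tested and a threshold of 0.05. SEs and 95% intervals come from that fit, and SDs are between 2 libraries. Counts per kb used merged exons of GENCODE v29. Other pathway genes were named by a rule: in each role and comparison, the 2 of smallest adjusted p. Alternatives numbered 25, among them DESeq2 1.42.0, limma 3.58.1, other scalings, a replicate block and leaving out each library. Steps were tested on simulated data. Same-numbered libraries deviated together between VAL 3 h and 6 h, and in the other pairs of times replicates differed too little to tell. The labels do not say that numbers pair libraries, so they were not used as pairs. Counting intervals cover counting error only.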

Additional observations from a re-analysis of the deposited data

Results flagged for a closer look

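A test of the difference between the lines picked out 6 results, each the change in OCI-LY3 minus the change in VAL on the log2 scale (edgeR's quasi-likelihood test, 2 libraries per group). CDKN2C differed by 0.67 ± 0.174 at 3 h (adjusted p = 0.0486) and by 1.76 ± 0.176 at 6 h (adjusted p = 0.00018). At 6 h CDK4 differed by 0.97 ± 0.246 (adjusted p = 0.0154), CDKN1B by 0.75 ± 0.199 (adjusted p = 0.0189), CDK6 by -1.36 ± 0.35 (adjusted p = 0.016) and CCNE2 by -0.87 ± 0.259 (adjusted p = 0.0306). All but the 6 h difference of CDKN2C lost their call in some fits with a library left out, as given above. With mitochondrial mRNAs held level the 3 h difference of CDKN2C (0.93, adjusted p = 0.319) did not pass. Nor did the 6 h differences of CDK6 (-0.7, adjusted p = 0.25) and CCNE2 (-0.22, adjusted p = 0.778). Line and sequencing lane cannot be told apart in these differences.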

How the results depend on the processing

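The falls of CCNE1, CCNE2, CDKN2C, CDKN2D and CCNG2 against 0 h passed in both lines under every alternative other than the 2-fold minimum. Of the 10 genes, the number called in OCI-LY3 at 6 h was 9, and 5 with the 2-fold minimum (percentages are all genes called in the same fit: 61.5% and 37.2%); between untreated lines it was also 9 and 5 (56.3% and 33.4%). For VAL at 6 h against 3 h it was 4 (22.8%), against 2 with DESeq2 size factors (21.9%), 7 with mitochondrial scaling (49%), 1 with each line alone (8.4%), 1 with the 2-fold minimum (8.3%) and 2 to 5 with a library left out (16% to 26.7%). For OCI-LY3 at 6 h against 3 h it was 3 (28.3%), against 8 with each line alone (55.5%), 8 without the treated VAL libraries of either number (49.5% and 48.9%), and 2 to 5 with a library left out (15.1% to 33.4%). For the difference between lines at 3 h it was 1 (6.03%), against 0 with mitochondrial scaling (2.61%), 4 with no low-count filter (6.18%), 3 with the replicate block (14.4%), 0 with the 2-fold minimum (3.67%), 5 and 7 without the treated VAL libraries numbered 1 and 2 (22% and 38.7%), and 0 to 4 with a library left out (0.821% to 21.3%). At 6 h it was 5 (26.8%), against 2 with the 2-fold minimum (16.7%) and 1 to 7 with a library left out (14.1% to 33.6%). With mitochondrial scaling signs turned for CDK4 (-1.22), CCND2 (-0.32) and CDK6 (-0.94) in VAL at 3 h, for CCND2 (-0.43), CDK6 (-1.71) and CDKN1B (-1.63) in VAL at 6 h, for CDK4 in OCI-LY3 at 3 h (-0.86) and 6 h (-1.04), and for CDKN1B in OCI-LY3 at 6 h (-0.28); between 6 h and 3 h for CCNG2 (-0.66) and CCND2 (-0.11) in VAL and for CDK4 (-0.18), CDKN2C (-0.11) and CDKN2D (-0.21) in OCI-LY3; and for the differences of CDKN2D at 3 h (0.08) and CCNG2 at 6 h (0.41). Signs turned under other settings too. CDK4 in VAL at 3 h was -0.22 with library totals, 0 with no filter and -0.11 without the VAL libraries numbered 2, and CCND2 there was -1.07 without those numbered 1. For VAL at 6 h against 3 h, CDK6 was 0.05, 0.01, 0.17, 0.03, 0.02, 0.07 and 0.04 (DESeq2 size factors, no filter, a minimum of 5 CPM, DESeq2's test, limma on the deposited log2 values, the lines fitted alone, without those numbered 2), CCNG2 was -0.04 with library totals and -0.03 without those numbered 2, and CCNE2 was 0.06 with 5 CPM. For the 3 h difference, CDKN2D was 0, 0, 0.03 and 0.13 (library totals, no filter, 5 CPM, without those numbered 2), CDK4 was -0.08 without those numbered 1 and CCNE2 -0.03 without those numbered 2; the 6 h difference of CCNE1 was -0.01 without those numbered 1. With 1 library left out, ranges that crossed 0 were -1.08 to 1.89 for CCND2 and -0.11 to 0.35 for CDK4 in VAL at 3 h; -0.17 to 2.8 for CCND2, -0.36 to 0.06 for CCNE2, -0.48 to 0.36 for CDK6 and -0.04 to 0.22 for CCNG2 in VAL at 6 h against 3 h; and -0.03 to 0.32 for CCNE2, -0.08 to 0.38 for CDK4 and -0.41 to 0.13 for CDKN2D in the 3 h difference. The causes were not tested. Same-numbered libraries correlated at 0.5 between VAL 3 h and 6 h and between -0.04 and 0.06 in the other pairs of times. Each of these other pairs includes untreated libraries or OCI-LY3 at 6 h, where replicates differed little (chi-square per degree of freedom 1.66 to 2.95). Their low values therefore cannot decide whether numbers pair libraries. The labels do not say so, and the numbers were not used as pairs in the main fit. The replicate block left 4 residual degrees of freedom and called 6 and 9 of the 10 genes in OCI-LY3 at 3 h and 6 h (47.1% and 64.8%) and 8 and 10 in VAL (58.8% and 68.8%). In VAL the block brought calls for CDK6 at 3 h (0.46, adjusted p = 0.0274) and 6 h (0.45, adjusted p = 0.0278) and for CCND2 at 6 h (1.72, adjusted p = 0.0276). With the block the 3 h differences between lines of CDK6 (-0.87, adjusted p = 0.0258) and CCNG2 (-0.64, adjusted p = 0.0354) passed too. So did the 6 h difference of CCND3 (0.66, adjusted p = 0.017). Over all genes, the 988 called for the 3 h difference became 2366 with the block, 1805 with DESeq2's test, 2168 with no filter, 428 with mitochondrial scaling, 601 with the 2-fold minimum and 142 to 3698 with a library left out.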
